A study of Canis lupus familiaris with 15 samples.

Results

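The genes CTNNB1, LEF1, FZD7, DKK3 and CSNK1A1, which act in Wnt signalling, were compared between 3 cell lines grown from canine mammary tumours. They were chosen by gene symbol and are 5 of 5246 named genes on the arrays. They have 7 of 22176 probes: 1 each for CTNNB1, LEF1, FZD7 and DKK3 and 3 for CSNK1A1. All 7 probes had a value on all 15 arrays. P114 came from a primary anaplastic carcinoma. CMT-U335 came from a primary mammary osteosarcoma, and CMT-U229 from a mixed tumour that was benign. No treatment or genetic change separates the lines in the labels. All were harvested near confluence, and each line stands for 1 tumour. Each cDNA array carried amplified RNA of a pair of lines in Cy3 and Cy5, with 5 arrays for each of the 3 pairs. The line named first was in Cy5 on 3 arrays of P114 over CMT-U335, 2 of P114 over CMT-U229 and 3 of CMT-U229 over CMT-U335.

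Wnt proteins are secreted signals that bind Frizzled receptors at the cell surface. Without a signal, a cytoplasmic complex that includes casein kinase 1 alpha and GSK3 phosphorylates beta-catenin and marks it for destruction. With a signal, beta-catenin accumulates, enters the nucleus and switches on genes together with DNA-binding partners of the TCF and LEF family. Beta-catenin also ties cadherins to the actin skeleton at adherens junctions of epithelia, the mammary gland included. The pathway acts mainly on beta-catenin protein, and these arrays measured RNA.

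Values are deposited log ratios turned to the order of each pair, so that a positive value means more RNA in the line named first. Their base is not stated and was taken as 2, on which every fold below rests. The direction is likely and not settled, because the labels do not say which dye is the numerator; it was read as Cy5. Under the opposite reading every higher gene below would be lower. A gene was called when limma gave an adjusted p under 0.05 (Benjamini-Hochberg over all genes), and errors are limma standard errors over 5 arrays. Spot intensities were not used here, so how far any probe lay above background is unknown. The arrays of a pair are labelled biological replicates, but some had the look of dye swaps of the same RNA. In P114 against CMT-U229, replicates 1 and 3 lay close together, as did 2 and 5. Only 0.0598 of a gene's variation, as a median over 78 varying genes with little dye effect, lay within these couples. In CMT-U229 against CMT-U335 the couples were 2 with 3 and 4 with 5 (0.177, over 52 genes). In P114 against CMT-U335 they were unclear: 1 with 3 and 4 with 5 gave 0.426, whereas a split with a couple of equal dye order, which cannot be a swap, gave 0.403. Should they be swaps, only 3 of the 5 arrays of a pair would be independent and the p-values over 5 too small. Adjusted p-values with the couples averaged are therefore given beside them.

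As a check of the labels, the epithelial gene EPCAM was 11.7-fold higher in the carcinoma line P114 than in the osteosarcoma line CMT-U335 (log2 3.55 ± 0.15, adjusted p = 2.47e-05, limma). KRT8 and KRT18, keratins of simple epithelia, were 5.49-fold and 11.1-fold higher. EPCAM, KRT8 and KRT18 were also higher in CMT-U229 than in CMT-U335, 3.43-fold, 5.91-fold and 1.73-fold. Between P114 and CMT-U229, EPCAM was 3.48-fold and KRT18 5.32-fold higher in P114, and KRT8 was not called (-0.31 ± 0.19). MUC1, the other of 4 measured epithelial markers, was called in no pair. It stood at -0.14 in P114 over CMT-U335 and -0.30 in CMT-U229 over CMT-U335. Of these 4 markers, 75% were called in either pair with CMT-U335 (22.3% and 17.3% of all genes). Between P114 and CMT-U229, 50% were (7.3% of all genes). Of 6 measured mesenchymal and osteoblast markers, 2 were higher and 2 lower in P114 than in CMT-U335 (66.7%, against 22.3% of all genes). In P114 against CMT-U229, 3 were higher and 0 lower (50%, against 7.3%). In CMT-U229 against CMT-U335, 0 were higher and 2 lower (33.3%, against 17.3%). COL1A2, a chain of type I collagen made by bone and connective tissue cells, was 2.61-fold lower in P114 and 10.5-fold lower in CMT-U229 than in CMT-U335, and 4.18-fold higher in P114 than in CMT-U229. COL3A1, the type III collagen chain, and ZEB1, a repressor of epithelial genes, were singled out after their values were seen. COL3A1 was higher in P114 than in CMT-U335 (0.69 ± 0.11) and than in CMT-U229 (0.77 ± 0.0992), and ZEB1 was lower than in CMT-U335 in P114 (-0.91 ± 0.13) and in CMT-U229 (-0.57 ± 0.0842). The filament gene VIM was not called in any pair, with values from -0.57 to -0.0411. SPARC, a matrix protein of bone, was higher in P114 than in CMT-U335 (0.56 ± 0.17) and in CMT-U229 (1.33 ± 0.21), and was not called between those (-0.64 ± 0.20). Of 4 leukocyte and 3 endothelial markers measured, CD14 alone, singled out after its values were seen, was called, higher in P114 than in either other line. That was 25% of the leukocyte markers, where 22.3% of all genes were called against CMT-U335 and 7.3% against CMT-U229. Of 3 myoepithelial markers MYLK alone was called, highest in CMT-U229. That was 33.3% of them, where 7.3% of all genes were called against P114 and 17.3% against CMT-U335. The part of these marker differences in the results was not tested, and ratios cannot show whether a marker was absent from a line.

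Of the 5 genes, 3 were called between P114 and CMT-U335, where 22.3% of all genes were called: CTNNB1, DKK3 and CSNK1A1, all higher in P114 (7.89% of all genes were higher and 14.4% lower). Between P114 and CMT-U229, 2 were called against 7.3% of all genes, CTNNB1 as higher (3.32% of all genes) and DKK3 as lower (3.98%). Between CMT-U229 and CMT-U335, 4 were called against 17.3%, with CTNNB1, FZD7 and DKK3 higher (8.77% of all genes) and LEF1 lower (8.58%). With the apparent swaps averaged the counts were 3, 0 and 3 in the same order, where 16%, 1.51% and 7.82% of all genes were called, and in the last pair CSNK1A1 joined CTNNB1 and DKK3 while LEF1 and FZD7 lost the call. The genes had been chosen with earlier results of these arrays known, so these counts describe the 5 genes only.

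**Figure D1:**
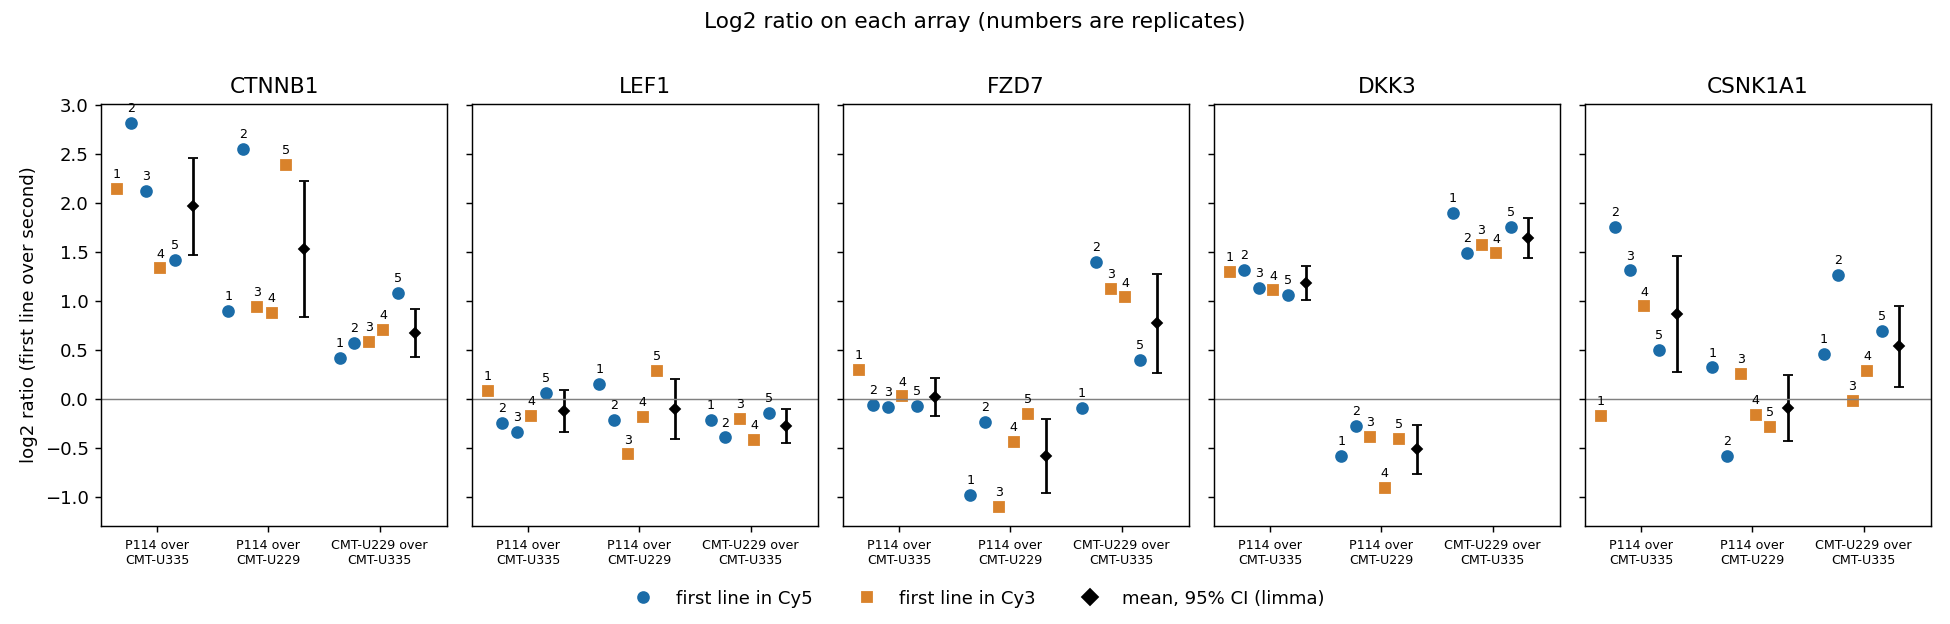
Log2 ratio of each gene on each of the 15 arrays (points, numbered by replicate; colour and shape give the dye of the line named first) with the limma mean and its 95% confidence interval (black). DKK3 points lie above 0 in both pairs with CMT-U335 and below 0 in P114 over CMT-U229, CTNNB1 points of P114 over CMT-U229 fall into 3 arrays from 0.88 to 0.94 and 2 arrays from 2.39 to 2.55, and LEF1 points stay near 0.

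DKK3 encodes a secreted glycoprotein of the Dickkopf family, whose relatives block Wnt co-receptors and which is often silenced in tumours. It was lowest in the osteosarcoma line and highest in the benign-tumour line. On the arrays of CMT-U229 over CMT-U335 its log2 ratios were 1.90, 1.49, 1.57, 1.49 and 1.76 (replicates 1 to 5). All 5 lay above 0 with little spread. The mean was 3.12-fold (1.64 ± 0.0858, adjusted p = 8.01e-05, limma; adjusted p = 0.00454 with swaps averaged).

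For DKK3 in P114 over CMT-U335 the 5 arrays gave 1.30, 1.31, 1.14, 1.11 and 1.06. They spanned a narrower range than in either other pair, with an SD of 0.115 where the median gene had 0.217. The mean ratio was 2.27-fold (1.18 ± 0.0757, adjusted p = 9.46e-05, limma; adjusted p = 0.00289 with swaps averaged). In P114 over CMT-U229 the arrays gave -0.58, -0.27, -0.39, -0.91 and -0.41, all below 0. DKK3 was thus 1.43-fold lower in P114 than in CMT-U229 (-0.51 ± 0.11, adjusted p = 0.0327, limma). That call was lost with swaps averaged (adjusted p = 0.163), with scale normalization, with a dye term and without replicate 1, 2, 3 or 5 (adjusted p up to 0.121), while the ratio stayed between -0.59 and -0.41.

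FZD7 encodes a Frizzled receptor that binds Wnt proteins, and its RNA differed most where CMT-U229 was on the array. In CMT-U229 over CMT-U335 the log2 ratios were -0.0925, 1.40, 1.12, 1.04 and 0.40. Replicate 1 alone was not above 0, and replicate 5 lay well under the other 3. The mean was 1.71-fold (0.77 ± 0.21, adjusted p = 0.0497, limma), just inside the threshold. Centring of the arrays alone moved it to adjusted p = 0.0507, averaging the swaps to adjusted p = 0.251, and leaving out replicate 2, 3, 4 or 5 ended the call as well.

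In P114 over CMT-U229, FZD7 gave -0.98, -0.24, -1.10, -0.44 and -0.15. All arrays lay below 0, but replicates 1 and 3, an apparent swap, were far lower than 2 and 5, the other apparent swap. The mean of -0.58 ± 0.16 was not called (95% interval -0.96 to -0.21, adjusted p = 0.0795, limma). In P114 over CMT-U335 the values were 0.29, -0.0634, -0.081, 0.0265 and -0.0661, on either side of 0. Their mean was 0.0219 ± 0.0836 (adjusted p = 0.894), with a 95% interval from -0.17 to 0.22.

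CSNK1A1 encodes casein kinase 1 alpha, which places the priming phosphate on beta-catenin that GSK3 needs. Averaged over its 3 probes, it gave log2 ratios of -0.17, 1.75, 1.31, 0.95 and 0.50 in P114 over CMT-U335. Replicate 1 was below 0 and the rest above. The mean of 0.87 ± 0.25 was called (1.83-fold, adjusted p = 0.0458, limma), but not when replicate 2, 3, 4 or 5 was left out (adjusted p up to 0.14), with scale normalization or with a dye term.

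The probes of CSNK1A1 did not behave alike. Probe 8654 gave 1.20, 0.85, 0.77, 1.12 and 0.72 in P114 over CMT-U335. Probe 16673 gave 1.10, 0.86, 0.82, 1.05 and 1.07. These probes lay close to each other on every array. Probe 11072 gave -2.82, 3.55, 2.34, 0.67 and -0.28, a range wider than that of either other probe. Fitted by itself among all 22176 probes, where 10.3% were called, probe 8654 stood at 0.93 ± 0.0986 (adjusted p = 0.00224, limma) and probe 16673 at 0.98 ± 0.079 (adjusted p = 0.000864). Probe 11072 stood at 0.69 ± 0.85 and was not called (adjusted p = 0.733).

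Probe 11072 also spread most in the other pairs. In CMT-U229 over CMT-U335, probe 8654 gave 0.44, 0.27, 0.42, 0.79 and 0.70 and probe 16673 gave 0.80, 0.30, 0.48, 0.85 and 0.89, all above 0. Probe 11072 gave 0.13, 3.23, -0.97, -0.78 and 0.50. Probes 8654 and 16673 were called (0.52 ± 0.0956, adjusted p = 0.0233, and 0.66 ± 0.11, adjusted p = 0.0162; background 8.23% of probes), whereas the gene average was not (0.54 ± 0.17, adjusted p = 0.0825, limma).

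In P114 over CMT-U229 the probes of CSNK1A1 had opposite signs. Probe 8654 was at 0.36 ± 0.12 and probe 16673 at 0.55 ± 0.17, each above 0 on 4 arrays and below 0 on replicate 4. Probe 11072 was at -1.17 ± 0.40, below 0 on 4 arrays. None of the 3 was called (adjusted p from 0.205 to 0.254; 3.4% of probes were called), and the gene average was -0.0892 ± 0.14. From the other 2 probes alone, a choice made after the values were seen, CSNK1A1 was 0.96 ± 0.0828 in P114 over CMT-U335 (adjusted p = 0.000341) and 0.59 ± 0.0974 in CMT-U229 over CMT-U335 (adjusted p = 0.00666). In P114 over CMT-U229 it was 0.45 ± 0.14 (adjusted p = 0.122), so its sign there depends on the probe.

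**Figure D2:**
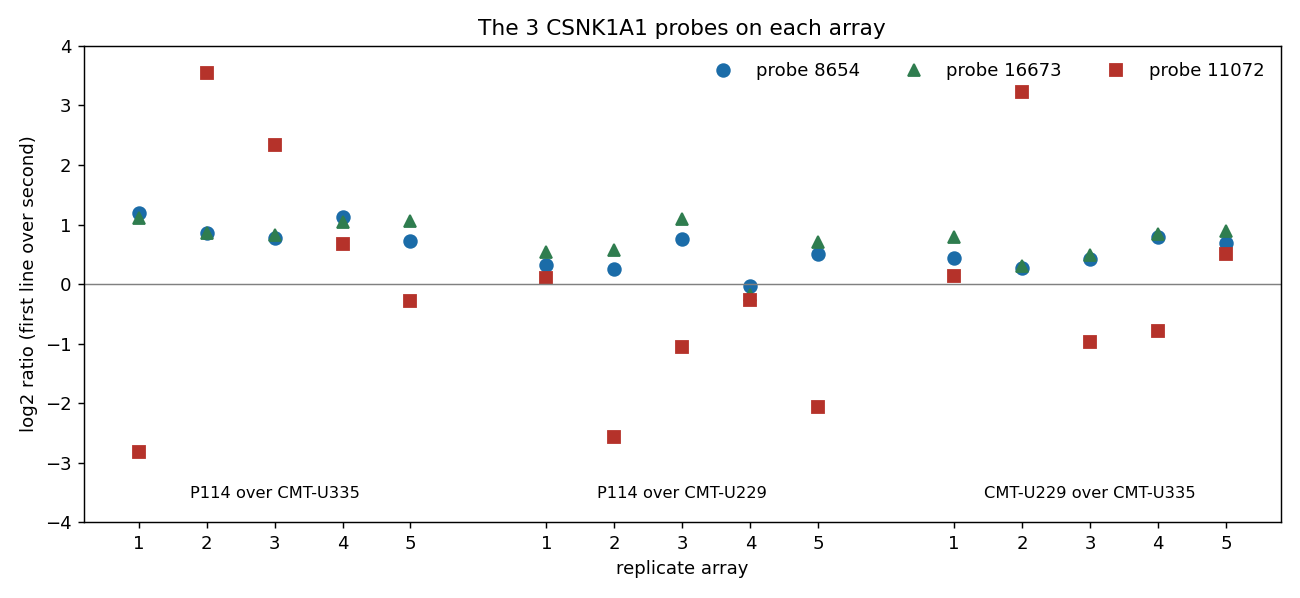
Log2 ratio of the 3 CSNK1A1 probes on each array, by pair of lines and replicate. Probes 8654 and 16673 overlap near or above 0, while probe 11072 ranges from -2.82 to 3.55.

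CTNNB1 encodes beta-catenin itself and had the largest mean ratio of the 5 genes in both pairs with P114, though not on every array. In P114 over CMT-U335, where it had rank 34 of 5246 genes by size of the ratio, the log2 ratios were 2.15, 2.82, 2.12, 1.33 and 1.42. All arrays showed more CTNNB1 RNA in P114, by at least 1.33 on the log2 scale. The mean was 3.91-fold (1.97 ± 0.21, adjusted p = 0.000741, limma; adjusted p = 0.00925 with swaps averaged). The call was kept with any single array left out.

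In P114 over CMT-U229, CTNNB1 gave 0.90, 2.55, 0.94, 0.88 and 2.39. Replicates 2 and 5, an apparent swap, stood far above replicates 1, 3 and 4, which lay within 0.88 to 0.94. The mean was 2.89-fold (1.53 ± 0.30, adjusted p = 0.0247, limma) and the SD of 0.86 lay at percentile 97.3 of all genes. The call was lost with swaps averaged (adjusted p = 0.19), with a dye term and without replicate 2, 3 or 5 (adjusted p up to 0.0844). All 5 arrays and all these versions kept CTNNB1 above 0 in P114.

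CTNNB1 in CMT-U229 over CMT-U335 gave 0.42, 0.57, 0.58, 0.70 and 1.08. The arrays all lay above 0, below those of P114 over CMT-U335. The mean was 1.59-fold (0.67 ± 0.10, adjusted p = 0.00525, limma; adjusted p = 0.0446 with swaps averaged). A fit in which all 15 arrays shared their spread ended the call (adjusted p = 0.0797), with the value unchanged.

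LEF1 encodes a DNA-binding partner of beta-catenin and is also a common target of the pathway. Its ratios were small in every pair. In CMT-U229 over CMT-U335 the arrays gave -0.21, -0.39, -0.21, -0.42 and -0.14, all below 0. The mean was 1.21-fold lower in CMT-U229 (-0.27 ± 0.0726, adjusted p = 0.0424, limma), a call lost without any one of the 5 arrays (adjusted p from 0.0707 to 0.155) and with swaps averaged (adjusted p = 0.16).

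In P114 over CMT-U335, LEF1 gave 0.0817, -0.24, -0.34, -0.17 and 0.0661. Over CMT-U229 it gave 0.15, -0.21, -0.56, -0.18 and 0.28. Both sets lay on either side of 0. The means of -0.12 ± 0.09 (95% interval -0.33 to 0.0895, adjusted p = 0.413) and -0.10 ± 0.13 (-0.41 to 0.20, adjusted p = 0.81) were not called. On the same arrays of P114 over CMT-U335 the 95% interval of CTNNB1 ran from 1.47 to 2.46.

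The arrays form a closed loop, so each gene's level in the 3 lines can be placed on a single log2 scale around their mean. In this fit of all 15 arrays, CTNNB1 stood at 1.17 ± 0.12 in P114, -0.29 ± 0.12 in CMT-U229 and -0.88 ± 0.12 in CMT-U335. DKK3 had another order, at 0.72 ± 0.0399 in CMT-U229, 0.22 ± 0.0399 in P114 and -0.94 ± 0.0399 in CMT-U335. All 3 steps between lines were called in this fit for both genes (CTNNB1 from adjusted p = 6.77e-07 to adjusted p = 0.0381; DKK3 from adjusted p = 6.29e-11 to adjusted p = 5.98e-05). FZD7 was at 0.45 ± 0.0833 in CMT-U229, above P114 (-0.19 ± 0.0833) and CMT-U335 (-0.26 ± 0.0833). The last 2 did not differ beyond their spread.

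On the same scale CSNK1A1 was at 0.26 ± 0.11 in P114 and 0.21 ± 0.11 in CMT-U229, which did not differ beyond their spread, and at -0.47 ± 0.11 in CMT-U335, below both. These levels rest on the average of its 3 probes, probe 11072 included. Without that probe, P114 over CMT-U229 was at 0.45 ± 0.14 on the arrays of that pair, not called (adjusted p = 0.122, limma). LEF1 ran from 0.13 ± 0.0497 in CMT-U335 to -0.0562 ± 0.0497 in CMT-U229 and -0.0753 ± 0.0497 in P114. None of its steps was called in this fit (adjusted p from 0.0772 to 0.924). The loop fit called 33.5%, 20.1% and 27.5% of all genes in the order of pairs used above, and it treats apparent swaps as separate arrays.

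**Figure D3:**
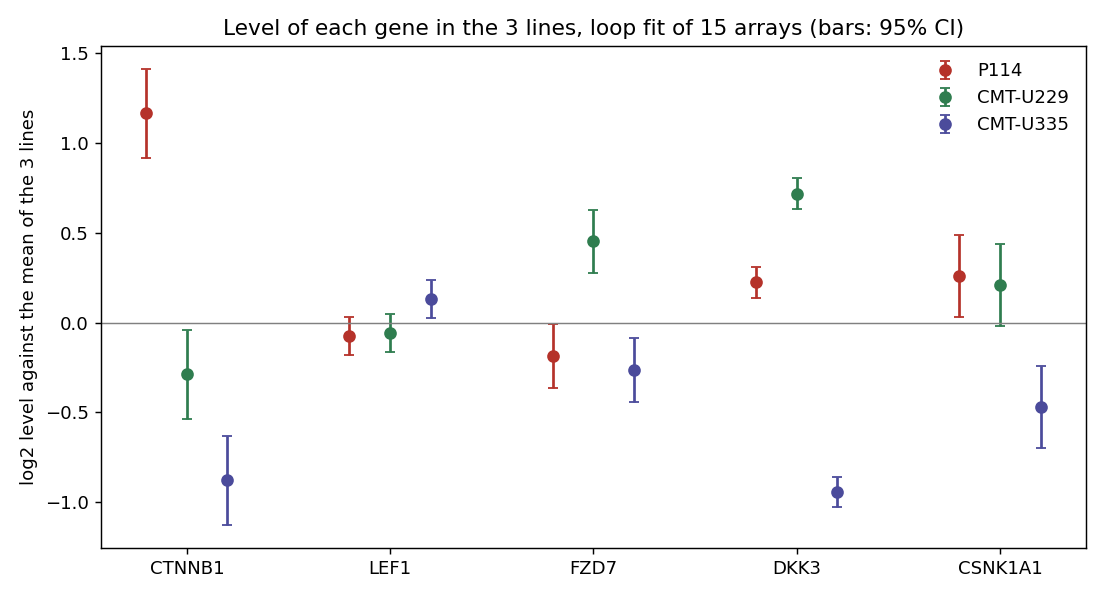
Log2 level of each gene in P114, CMT-U229 and CMT-U335 against the mean of the 3 lines, from the loop fit of 15 arrays, with 95% confidence intervals. CTNNB1 is highest in P114 (1.17), DKK3 and FZD7 in CMT-U229 (0.72 and 0.45), and CMT-U335 is lowest for CTNNB1, DKK3 and CSNK1A1. FZD7 in P114 and CMT-U335 did not differ beyond their spread. CSNK1A1 is the average of its 3 probes, probe 11072 included. No step of LEF1 was called after adjustment. Its 95% intervals over CMT-U335 nonetheless lay below 0, for P114 (-0.39 to -0.0244) and for CMT-U229 (-0.37 to -0.00526).

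The direct ratio of P114 over CMT-U335 can be set against the sum of the other pairs. For CTNNB1 the direct mean was 1.97 and the indirect sum 2.20. For DKK3 these were 1.18 and 1.13, for FZD7 0.0219 and 0.19, for LEF1 -0.12 and -0.38, and for CSNK1A1 0.87 and 0.45. None of the differences was called. No gene on the arrays failed to close at an adjusted p under 0.05 in limma (0%), and 17 of 5246 did so at an unadjusted p under 0.05 (0.324%). Chance alone would put a share of about 0.05 there, so the test was conservative and the absence of calls does not show that the loop closes.

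The genes whose ratios ran most like each of the 5 were ranked by the cosine of their log2 ratios over the 15 arrays, among 5244 other genes. The arrays share 3 lines, so the cosines are descriptions. RGS2, a regulator of G protein signalling, was the nearest to CTNNB1 (cosine 0.973), followed by FN1, which encodes fibronectin (0.958), and TIMP1, an inhibitor of matrix proteases (0.957). RGS2 had the same separation of replicates in P114 over CMT-U229 as CTNNB1, at 0.76, 2.68, 0.78, 0.74 and 2.65. FN1 (1.55 and 1.39) and TIMP1 (1.81 and 1.66) were likewise highest in replicates 2 and 5 of that pair. The means of RGS2 were 1.94 ± 0.29 in P114 over CMT-U335, 1.52 ± 0.36 in P114 over CMT-U229 and 0.20 ± 0.0731 in CMT-U229 over CMT-U335, where CTNNB1 was at 0.67.

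Nearest to DKK3 were LEPROTL1 (0.986), PPP1R14C (0.979) and the ribosomal protein gene RPL7 (0.979). LEPROTL1 was at 1.07 ± 0.093, -0.33 ± 0.0742 and 1.45 ± 0.0751 in the 3 pairs, the same order of lines as DKK3. Nearest to FZD7 were PCP4 (0.933), LETM2 (0.915) and CITED1 (0.899). PCP4 and CITED1 stood at 1.59 ± 0.25 and 1.59 ± 0.15 in CMT-U229 over CMT-U335, with FZD7 at 0.77. LEF1 had no close neighbour (MARK1, a kinase, at 0.746, then LYRM1 at 0.707 and KCTD19 at 0.695). Nor had the averaged CSNK1A1 (C2CD2L at 0.816, USP46 at 0.788 and RUFY3 at 0.785). Between members the cosines ran from -0.58 for LEF1 with CSNK1A1 to 0.68 for DKK3 with CSNK1A1, and CTNNB1 with LEF1 stood at -0.40.

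Beyond these 5, lists of Wnt pathway and adherens junction genes by role named 228 genes, of which 62 were measured. Between P114 and CMT-U335, 3 were higher and 9 lower in P114, or 19.4% where 22.3% of all genes were called. Between P114 and CMT-U229, 2 were higher and 1 lower (4.84%, against 7.3%). Between CMT-U229 and CMT-U335, 9 were higher and 6 lower in CMT-U229 (24.2%, against 17.3%). Their median log2 ratios were 0.00584, 0.0207 and -0.0192, and those of all genes -0.0228, -0.0113 and -0.00504. With swaps averaged, 2 were higher and 6 lower in the first pair, 0 and 0 in the second, and 4 and 1 in the third. Of all genes, 16%, 1.51% and 7.82% were then called.

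**Figure D4:**
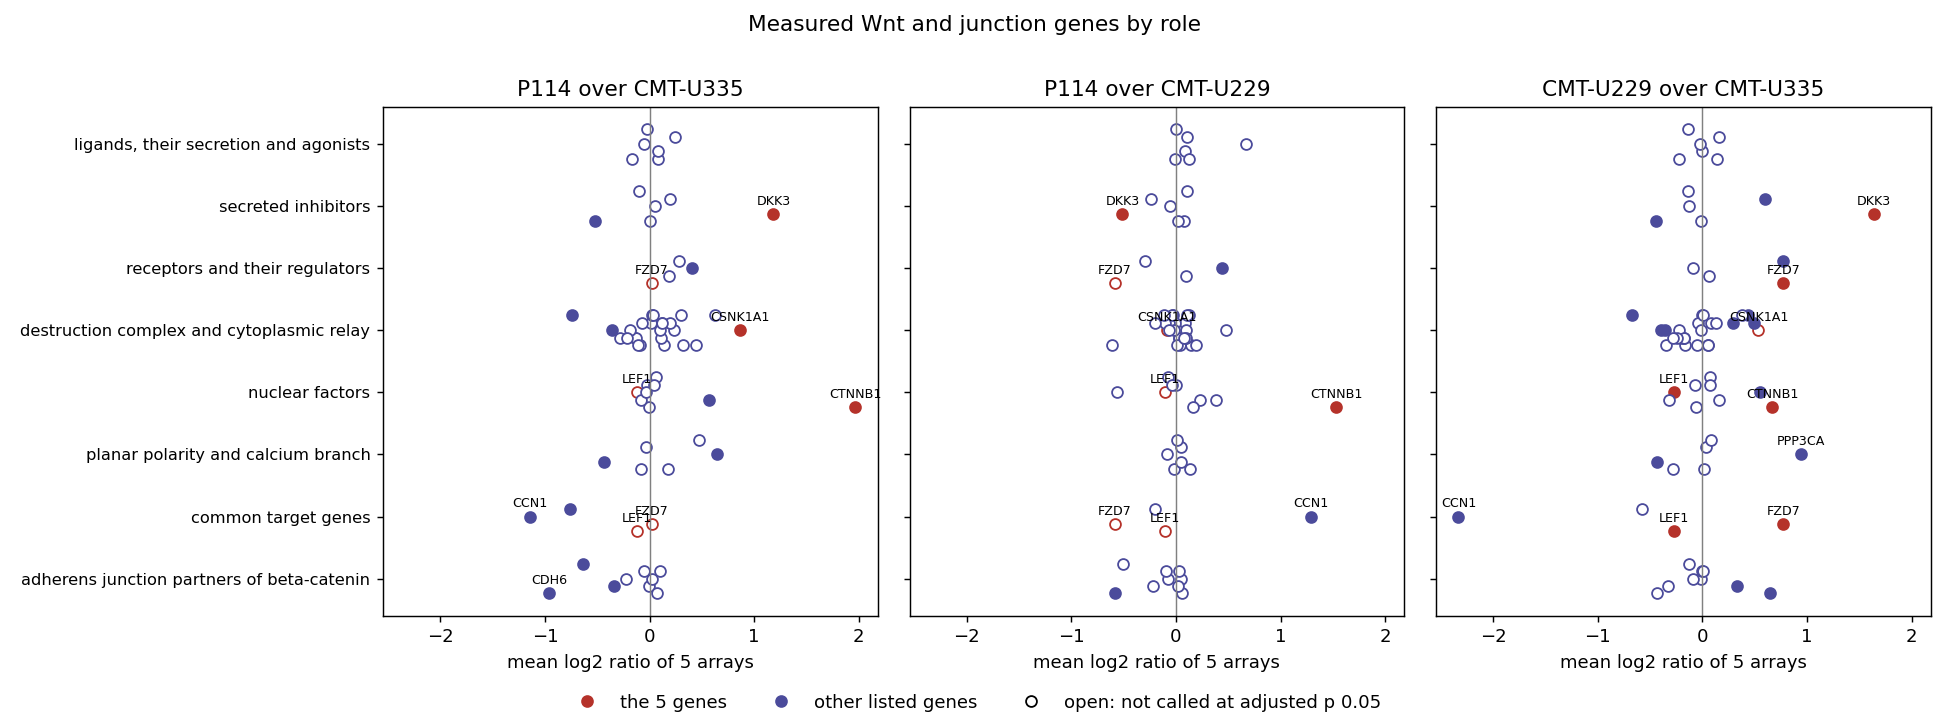
Mean log2 ratio of the measured genes of each Wnt role in the 3 pairs (filled when called by limma at an adjusted p under 0.05, red for the 5 genes). Outside the 5 genes the widest values are those of CCN1, from -2.33 to 1.29.

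Of the ligands and the genes for their secretion, 6 were measured (WNT3, WNT8B, PORCN, WLS, RSPO3 and NDP) and none was called in any pair, where 22.3%, 7.3% and 17.3% of all genes were called. With 6 genes, 0 calls is near those shares. The ligand carrier WLS stood at 0.24 ± 0.10 in P114 over CMT-U335 and 0.16 ± 0.0985 in CMT-U229 over CMT-U335. PORCN, which attaches the lipid of Wnt proteins, was at 0.67 ± 0.62 in P114 over CMT-U229. NDP, an unrelated ligand of Frizzled, ranged between -0.23 and 0.13 in its means.

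Of 6 measured secreted inhibitors, DKK3, DKK2 and FRZB were called in some pair. In the order of pairs used above, 33.3%, 16.7% and 50% of the 6 were called, against 22.3%, 7.3% and 17.3% of all genes. DKK3, one of the 5 chosen genes, is counted in each of these shares. DKK2, a Dickkopf that binds Wnt co-receptors, was lower in P114 (-0.52 ± 0.13, adjusted p = 0.0236, limma) and in CMT-U229 (-0.44 ± 0.11, adjusted p = 0.0354) than in CMT-U335, where DKK3 on the same arrays was higher. In the first of these DKK2 lost the call without replicate 2, 3 or 5. In the second it lost it without replicate 1, 2, 3 or 5 and with swaps averaged (adjusted p = 0.0627). FRZB, a secreted decoy with a Frizzled-like domain, was 1.52-fold higher in CMT-U229 than in CMT-U335 (0.60 ± 0.0799, adjusted p = 0.00287).

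Among 4 measured receptors and regulators, 25%, 25% and 50% were called in the order of pairs used above, against 22.3%, 7.3% and 17.3% of all genes. FZD7, a chosen gene, is counted in the last share. RYK, a kinase-like Wnt receptor, was higher in P114 than in CMT-U335 (0.40 ± 0.0956, adjusted p = 0.0209, limma) and than in CMT-U229 (0.44 ± 0.0851, adjusted p = 0.0247). Either call was lost with swaps averaged (adjusted p = 0.0557 and adjusted p = 0.134). The call against CMT-U335 was also lost without replicate 2 or 4, and that against CMT-U229 without replicate 1, 2, 3 or 5. TPBG, a membrane glycoprotein that dampens the canonical branch, was higher in CMT-U229 than in CMT-U335 by 0.78 ± 0.14, beside FZD7 at 0.77 (adjusted p = 0.00917, and adjusted p = 0.0503 with swaps averaged).

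Of 25 measured genes of the destruction complex and the cytoplasmic relay, CSNK1A1 was higher and 2 others fell in P114 against CMT-U335, or 12% where 22.3% of all genes were called. MACF1, a cytoskeletal linker that binds Axin, fell to -0.74 ± 0.11 (adjusted p = 0.00325, limma) and PPP2R5D, a regulatory subunit of protein phosphatase PP2A, to -0.36 ± 0.083 (adjusted p = 0.018). None of the 25 was called between P114 and CMT-U229, where 7.3% of all genes were. The uncalled PPP2CA stood there at 0.48 ± 0.16 (adjusted p = 0.155, limma) and the uncalled CUL1 at -0.61 ± 0.54 (adjusted p = 0.683). Between CMT-U229 and CMT-U335, 3 rose and 3 fell, or 24% where 17.3% of all genes were called. The catalytic PP2A subunits differed in sign, with PPP2CB at 0.49 ± 0.074 (adjusted p = 0.0045) and PPP2CA at -0.39 ± 0.0936 (adjusted p = 0.0291). FBXW11, which recognises phosphorylated beta-catenin for destruction, was at 0.43 ± 0.11 (adjusted p = 0.0315) and MACF1 at -0.68 ± 0.13 (adjusted p = 0.0115). Of these calls, PPP2R5D was lost without replicate 1, 4 or 5. PPP2CA was lost without replicate 2, 3 or 5 and FBXW11 without replicate 1, 2, 3 or 5, and with swaps averaged PPP2CA, FBXW11 and MACF1 in this pair were not called (adjusted p = 0.158, 0.088 and 0.0568).

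Among 9 measured nuclear factors, 22.2%, 11.1% and 33.3% were called in the order of pairs used above, against 22.3%, 7.3% and 17.3% of all genes. CTNNB1 is counted in each share and LEF1 in the last. JUP (plakoglobin), the close relative of beta-catenin in junctions, rose with CTNNB1 in P114 over CMT-U335. Its ratio was 1.48-fold (0.57 ± 0.11, adjusted p = 0.00857, limma). SMARCA4, the motor of a chromatin remodelling complex, was higher in CMT-U229 than in CMT-U335 (0.55 ± 0.084, adjusted p = 0.00503). Of 9 measured junction partners, 3 fell in P114 against CMT-U335 and none rose, where 14.4% of all genes were lower and 7.89% higher. They were the cadherin CDH6 (-0.96 ± 0.23, adjusted p = 0.0198), the phosphatase PTPRM (-0.63 ± 0.18, adjusted p = 0.0425) and the tight junction scaffold TJP1 (-0.35 ± 0.0816, adjusted p = 0.0204). Each lost its call when some replicates were left out (1, 2 or 3 for CDH6, 1, 3, 4 or 5 for PTPRM and 2, 3 or 5 for TJP1), and with swaps averaged CDH6 and PTPRM were not called (adjusted p = 0.0506 and 0.253).

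Of the junction partners, 11.1% were called between P114 and CMT-U229 and 22.2% between CMT-U229 and CMT-U335, against 7.3% and 17.3% of all genes. IQGAP1, a scaffold that binds beta-catenin and actin, was lower in P114 than in CMT-U229 (-0.58 ± 0.0938, adjusted p = 0.0125, limma) and higher in CMT-U229 than in CMT-U335 (0.64 ± 0.13, adjusted p = 0.0162). The first call was lost without replicate 2 and the second without replicate 2 or 3, and both with swaps averaged (adjusted p = 0.0626 and 0.0606). CTNNA1, the alpha-catenin that links beta-catenin to actin, was higher in CMT-U229 than in CMT-U335 by 0.33 ± 0.0705 (adjusted p = 0.0189), a call lost without replicate 2, 3 or 5 and with swaps averaged (adjusted p = 0.104).

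Of the target gene list 4 of 37 were measured, LEF1 and FZD7 included. In the order of pairs used above, 50%, 25% and 75% of the 4 were called, against 22.3%, 7.3% and 17.3% of all genes. LEF1 and FZD7 are counted in the last share. CCN1, a matrix-associated signalling protein, had the widest ratios of the listed genes outside the 5. It was 5.04-fold lower in CMT-U229 than in CMT-U335 (-2.33 ± 0.20, adjusted p = 0.000548, limma), 2.21-fold lower in P114 than in CMT-U335 (-1.14 ± 0.22, adjusted p = 0.00837) and 2.44-fold higher in P114 than in CMT-U229 (1.29 ± 0.21, adjusted p = 0.0136; adjusted p = 0.0548 with swaps averaged). CTNNB1 had the opposite sign to CCN1 in both pairs with CMT-U335 and the same sign in P114 over CMT-U229. BIRC5, an inhibitor of apoptosis that peaks in dividing cells, was lower in P114 than in CMT-U335 (-0.76 ± 0.17, adjusted p = 0.0163), a call lost without replicate 2 or 3.

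In the planar polarity and calcium branch, 6 genes were measured. In either pair with CMT-U335, 33.3% of them were called, where 22.3% (P114) and 17.3% (CMT-U229) of all genes were. PPP3CA, the catalytic subunit of calcineurin, was higher than in CMT-U335 in P114 (0.65 ± 0.10, adjusted p = 0.00426, limma) and in CMT-U229 (0.95 ± 0.11, adjusted p = 0.00147). MAPK9, a JNK kinase, was lower in P114 (-0.43 ± 0.0889, adjusted p = 0.0117) and in CMT-U229 (-0.44 ± 0.0783, adjusted p = 0.00961). With swaps averaged MAPK9 was not called (adjusted p = 0.0527 and adjusted p = 0.0632). None of the 6 was called between P114 and CMT-U229, where 7.3% of all genes were, and 0 of 6 is near that share. PPP3CA stood there at -0.0906 ± 0.0859 and PRKCB at 0.13 ± 0.0781. P114 and CMT-U229 share the comparator CMT-U335, so agreement of their ratios over it is not separate evidence.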

How the data were processed

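RNA was amplified by T7 transcription, coupled to Cy3 or Cy5 and hybridised to cDNA arrays, per the labels' protocols. The deposited values, taken here as log2 ratios, are log ratios of data normalized by the authors before deposit, per the series' design. How they were normalized, to which base the logarithm was taken and which dye is the numerator is not given in the sources used here. A base of 2 was assumed because no value exceeds 12.4 in size, which does not settle the base, and Cy5 was assumed as numerator. Array medians lay between -0.00671 and 0.0134.

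Of 22176 probes with 2 missing values, 7694 had 1 symbol, 0 several and 14482 none. Of the symbols, 7340 were updated through Entrez identifiers. Ratios were turned to the order of the titles from the labelled dyes. Genes were means of their probes, and limma 3.58.1 in R 4.3.3 (lmFit, eBayes, two-sided) was run on 1 pair at a time over 5246 genes, in place of the SAM test of the series' design. The scripts were tested on simulated data. Apparent dye swaps are the couples of arrays with opposite dyes that left the smallest share of variation within couples. Separate cultures are not documented for every array, so p-values measure the spread between arrays, whose number limits precision.

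The members and lists were chosen with earlier results of these data known. Named were the 5 genes, up to 4 called members of each Wnt list and pair by size (or 2 members where none was called), the 3 nearest genes by cosine, and 6 markers. Other marker genes named above were added from the marker lists.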

Additional observations from a re-analysis of the deposited data

Results flagged for a closer look

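Among the 71 gene and pair values reported, 3 had an array far from the other 4, where the gap to the nearest array exceeded 0.71 of the whole range. Chance alone sets about 1 in 20 such groups apart. FZD7 in P114 over CMT-U335 was at 0.2936 in replicate 1, against -0.081 to 0.0265 on the others. Its mean there was not called with or without that array. CCN1 in the same pair was at -2.238 in replicate 2, against -1.0573 to -0.7882, and kept its call when any array was left out. NDP in P114 over CMT-U229 was at 0.982 in replicate 5, against -0.2832 to 0.0616, and was not called.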

How the results depend on the processing

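Read as Cy3 over Cy5, every ratio turned. In P114 over CMT-U335 this gave CTNNB1 -1.97, LEF1 0.12, FZD7 -0.0219, DKK3 -1.18 and CSNK1A1 -0.87, with 9 other Wnt genes higher and 3 lower. In P114 over CMT-U229 it gave -1.53, 0.10, 0.58, 0.51 and 0.0892 in the same order, with 1 higher and 2 lower, and in CMT-U229 over CMT-U335 -0.67, 0.27, -0.77, -1.64 and -0.54. A dye term ended the calls of CSNK1A1 in P114 over CMT-U335 (0.79), CTNNB1 (1.56) and DKK3 (-0.50) in P114 over CMT-U229, and LEF1 (-0.28) and FZD7 (0.82) in CMT-U229 over CMT-U335. Scale normalization ended those of CSNK1A1 (0.88), DKK3 (-0.59) and FZD7 (0.84) in the same pairs, and centring each array that of FZD7 (0.77).

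With apparent swaps averaged, CTNNB1 (1.42) and DKK3 (-0.58) in P114 over CMT-U229 and LEF1 (-0.26) and FZD7 (0.63) in CMT-U229 over CMT-U335 lost their calls, and CSNK1A1 (0.52) gained it in the last pair. Of the other Wnt genes 0 were then higher and 0 lower in P114 against CMT-U229 (1.51% of all genes called), and 4 higher and 1 lower in CMT-U229 against CMT-U335 (7.82%). Pair means fitted with a shared spread ended the calls of CTNNB1 (0.67) and LEF1 (-0.27) in CMT-U229 over CMT-U335 and gave one to FZD7 in P114 over CMT-U229 (-0.58), with 4 other Wnt genes higher and 2 lower there. The share of all genes called by the pair means was not taken, so these counts cannot be set against it. The loop fit gave calls to FZD7 in P114 over CMT-U229 (-0.64) and CSNK1A1 in CMT-U229 over CMT-U335 (0.68), ended that of LEF1 (-0.19) and put CSNK1A1 at 0.0510 in P114 over CMT-U229. It called 8 other Wnt genes higher and 9 lower in P114 than in CMT-U335, where it called 33.5% of all genes. In P114 against CMT-U229 it called 4 higher and 6 lower (20.1% of all genes). In CMT-U229 against CMT-U335 it called 8 higher and 13 lower (27.5% of all genes). The median probe put CSNK1A1 at 0.33 in P114 over CMT-U229 and at 0.53, called, in CMT-U229 over CMT-U335. Leaving out its noisiest probe, an alternative chosen after seeing the data, gave 0.45 and 0.59. The causes of these changes were not tested.

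Leaving out 1 array at a time, in P114 over CMT-U335 CTNNB1 ranged from 1.75 to 2.13, LEF1 from -0.17 to -0.0669, FZD7 from -0.0460 to 0.0476, DKK3 from 1.15 to 1.21 and CSNK1A1 from 0.65 to 1.13, with 2 to 3 other Wnt genes higher and 4 to 7 lower. The ranges in P114 over CMT-U229 were 1.28 to 1.69, -0.20 to 0.00999, -0.69 to -0.45, -0.57 to -0.41 and -0.19 to 0.0337, with 1 to 2 higher and 0 to 2 lower. In CMT-U229 over CMT-U335 they were 0.57 to 0.73, -0.31 to -0.24, 0.62 to 0.99, 1.58 to 1.68 and 0.35 to 0.68, with 5 to 9 higher and 3 to 6 lower. The share of all genes called was not taken with an array left out. Whether these counts changed more than those of all genes is therefore unknown. Between arrays of the same replicate number in different pairs, correlations of deviations from the pair mean ran from -0.25 to 0.33, with 3 of 15 over 0.1. Dye effects were left in these deviations, so the correlations do not show whether the numbers pair arrays. The number as a replicate block was added to the fit of pair means, not to the fits of single pairs. With it CTNNB1 in CMT-U229 over CMT-U335 was not called (0.67, adjusted p = 0.0655, limma; 0.0797 without the block), and 4 other Wnt genes were higher and 2 lower in P114 than in CMT-U229, the same counts as without it. For the block too, the share of all genes called was not taken. Against the pair means without it, the block ended the call of FZD7 in P114 over CMT-U229 (adjusted p = 0.0694) and gave one to LEF1 in CMT-U229 over CMT-U335 (adjusted p = 0.037).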
